A study of Mus musculus with 6 samples.

Results

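The RNAs described here encode 8 proteins of the growth cone, the motile tip of a growing axon, and were measured in LARP1 precipitates from mouse dorsal root ganglia (DRG). They are *Gap43*, *Basp1*, *Marcks* and *Marcksl1*, called the GAP43 group below, and the stathmins *Stmn1*, *Stmn2*, *Stmn3* and *Stmn4*. They were chosen by Ensembl identifier from the deposited table, where all 8 of 8 were found among 16976 identifiers. Which identifier belongs to which symbol was given with the choice of genes, since no table used here pairs Ensembl identifiers with symbols. All mice were wild-type. The injured group had received a sciatic nerve injury, which cuts or crushes axons whose cell bodies lie in the ganglia, and the uninjured group had not. The sources used here do not give the kind of injury, the time since it or the age of the animals. LARP1 was precipitated by antibody from fresh DRG lysate, and the RNA recovered with it was read as amplified nanopore cDNA, with 3 libraries per group.

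The proteins of the GAP43 group carry clusters of basic residues and lipid anchors by which they sit on the inner face of the plasma membrane, where they bind acidic phospholipids and influence the actin skeleton. Members of this group also bind calmodulin and are substrates of protein kinase C. Stathmins bind soluble tubulin and regulate the growth and shrinkage of microtubules, and phosphorylation weakens that binding. *Gap43* and *Stmn2* (SCG10) are among the RNAs long known to increase in sensory neurons whose peripheral axon has been injured. LARP1 is best known for binding RNAs that begin with a C followed by a run of pyrimidines, the terminal oligopyrimidine (TOP) tract.

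Because LARP1 is known for that 5′ tract, the annotated starts of these genes are shown first. The RefSeq promoter table (build GRCm38.p6, a different build from the GRCm39 of the counts) held 3 of the 8 genes, each with 1 start. In the sequences below, 30 bases before the start are in lower case and the first 20 transcribed bases are in capitals. *Basp1* lies at chr15:25413745-25413794 on the minus strand, *Marcksl1* at chr4:129513551-129513600 on the plus strand and *Stmn3* at chr2:181314481-181314530 on the minus strand.
Basp1: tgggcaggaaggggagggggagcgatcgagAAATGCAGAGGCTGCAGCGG
Marcksl1: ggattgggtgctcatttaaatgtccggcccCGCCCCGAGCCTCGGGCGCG
Stmn3: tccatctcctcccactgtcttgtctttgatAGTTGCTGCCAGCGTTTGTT
A first base C followed by at least 4 pyrimidines was found at 0 of these 3 starts and at 2.51% of the 32851 starts in the table. *Basp1* and *Stmn3* begin with A. *Marcksl1* begins with C, but its run ends after 1 base, and the longest pyrimidine run in its first 10 bases is 4, a length reached or passed by 30.5% of all starts. These are matches of letters at annotated starts in transcript orientation, and the starts used in DRG were not measured here.

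The uninjured libraries held 116186 to 116608 counts and the injured libraries 211337 to 211879, so the injured group was 1.82 times as deep. Between libraries of a group, the variance over genes with at least 15 counts was 1.16 (uninjured) and 1.12 (injured) times that of counting. The libraries of a group were therefore summed and counted as 1 sample, and nothing in the labels says that they came from separate animals. Differences between the groups consequently have no replicate check, and injury cannot be told apart from any batch that went with it. Levels are CPM, the counts of a gene per 1000000 counts of its library or group, not corrected for transcript length. The level of each gene is therefore compared with itself across groups. Shares within a family are shares of counts and are not corrected for length either. The intervals are exact 95% intervals and cover counting error only. No total RNA or control precipitate was analysed here, so a level can reflect the RNA in the tissue as well as its binding. In this bulk material fewer cells of a type and less RNA per cell cannot be told apart. Markers of neurons, glia and other cell types were not analysed here, because their identifiers could not be paired with symbols, and their part in the results was not tested.

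All 8 RNAs had a higher summed level in the injured than in the uninjured precipitate, with ratios from 1.36 to 9.35 and a median of 2.17. All 8 are among the 3458 genes that averaged 50 CPM or more over the libraries. Of those genes, 51.7% had a ratio above 1, and their median was 1.03 with quartiles of 0.699 and 1.57. The interval of the ratio lay wholly above 1 for 7 of the 8, against 27.6% of those genes. The ratio was above 2 for 5 of the 8, against 15.7% of those genes, and above 4 for *Gap43* and *Stmn4*, against 4.14%. In 7 of the 8, every injured library lay above every uninjured one, a pattern seen in 28.9% of those genes. The exception was *Marcksl1*. *Gap43*, *Marcks*, *Marcksl1* and *Stmn4* were below 50 CPM uninjured and belong to those genes only through their injured libraries. For all 4 this already required a ratio above 1, and for *Gap43* and *Stmn4* a ratio above 4. These shares are therefore given for orientation and lend the counts of members no support. No member had 0 counts in any library.

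**Figure D1:**
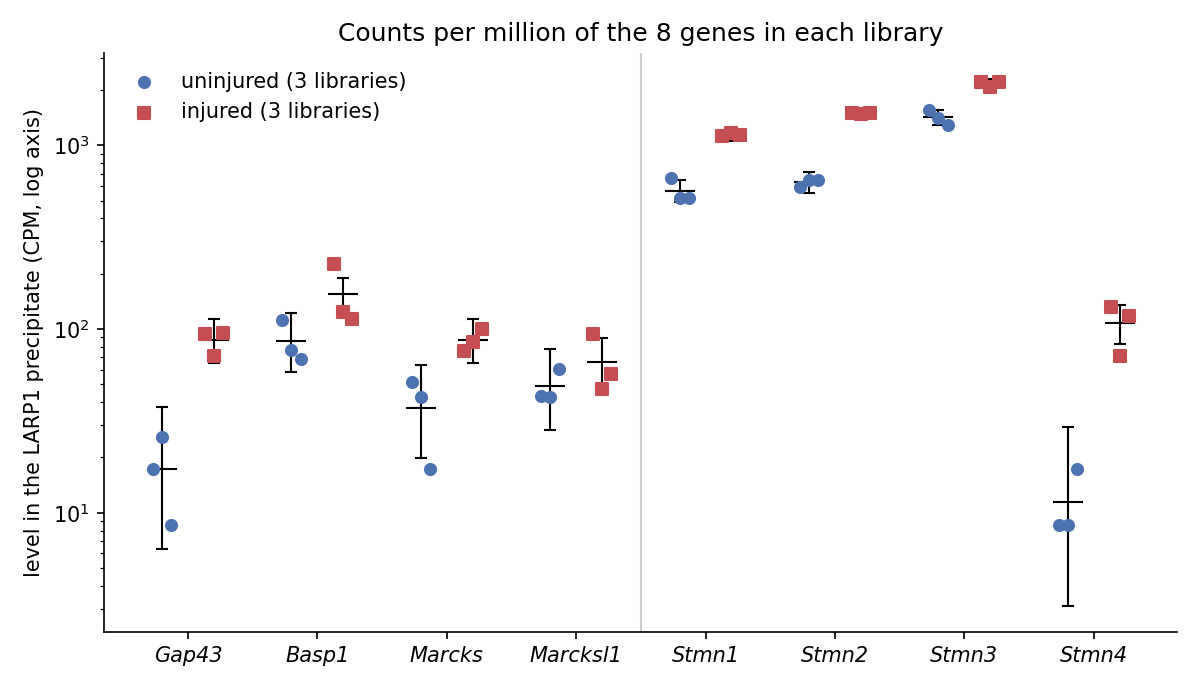
Level of each RNA in CPM (log axis) in the 3 uninjured (circles) and 3 injured (squares) libraries, with the level of the summed group (horizontal bar) and its exact 95% Poisson interval. The groups are apart in every gene but *Marcksl1*, and the widest gap is that of *Stmn4*, whose uninjured level rests on 4 counts.

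*Gap43* (ENSMUSG00000047261), the growth-associated protein for which the first group is named, was close to the limit of counting without injury and higher after it. The uninjured libraries gave 2, 3 and 1 counts (17.2, 25.7 and 8.61 CPM) and the injured ones 20, 15 and 20 (94.4, 71.0 and 94.6 CPM). Its lowest injured library was 2.76 times its highest uninjured one. Summed by group, it stood at 17.2 CPM (6.31 to 37.4) uninjured and 86.7 CPM (65.3 to 113) injured, which is a ratio of 5.04 (2.17 to 14.3). With only 6 uninjured counts the size of the ratio is loosely fixed, and leaving out 1 library at a time moved it between 4.04 and 6.71.

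*Basp1* (ENSMUSG00000045763) encodes the brain acid-soluble protein CAP-23, which like GAP-43 is held at the membrane by a lipid and affects actin. The uninjured libraries gave 13, 9 and 8 counts (112, 77.2 and 68.9 CPM) and the injured ones 48, 26 and 24 (226.5, 123 and 113.5 CPM). The groups were barely apart, since the lowest injured library was 1.02 times the highest uninjured one, and the first injured library stood well above the others. Summed, 86.0 CPM (58.0 to 123) compared with 154 CPM (125 to 188), so that the ratio was 1.80 (1.18 to 2.80). Without the first injured library it was 1.38.

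*Marcks* (ENSMUSG00000069662), the myristoylated substrate of protein kinase C that releases phospholipids and leaves the membrane when phosphorylated, gave 6, 5 and 2 counts in the uninjured libraries (51.6, 42.9 and 17.2 CPM). The injured ones gave 16, 18 and 21 (75.5, 85.2 and 99.3 CPM). The libraries did not overlap, and the third uninjured library was the lowest. The ratio of the summed levels, 37.2 CPM (19.8 to 63.7) and 86.7 CPM (65.3 to 113), was 2.33 (1.26 to 4.64), and it was 1.83 without that library.

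*Marcksl1* (ENSMUSG00000047945), the smaller MARCKS homologue, gave no clear difference. The uninjured libraries gave 5, 5 and 7 counts (43.0, 42.9 and 60.3 CPM) and the injured ones 20, 10 and 12 (94.4, 47.3 and 56.8 CPM). Injured libraries 2 and 3 lay inside the uninjured range, and the first lay above it. The summed levels of 48.7 CPM (28.4 to 78.0) and 66.2 CPM (47.7 to 89.5) gave a ratio of 1.36, whose interval of 0.757 to 2.55 includes both no difference and a 2-fold one. The RefSeq gene table lists 5 pseudogenes of *Marcksl1*, and 2 of *Stmn1*. Whether reads were shared with these copies was not tested, so the counts of both genes are uncertain to that extent.

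*Stmn1* (ENSMUSG00000028832), the cytosolic stathmin found in many dividing and neuronal cells, gave 77, 60 and 60 counts in the uninjured libraries (662.5, 514.5 and 516 CPM). The injured ones gave 239, 246 and 239 (1128, 1164 and 1131 CPM). The injured libraries were close together and far from the uninjured range. The summed level went from 564 CPM (488 to 649) to 1141 CPM (1059 to 1227), a ratio of 2.02 (1.72 to 2.38).

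*Stmn2* (ENSMUSG00000027500), known as SCG10, is a neuronal stathmin anchored to vesicle membranes and concentrated in growth cones. The uninjured libraries gave 69, 75 and 75 counts (594, 643 and 645.5 CPM) and the injured ones 317, 311 and 318 (1496, 1472 and 1504 CPM). Within each group the libraries were nearly equal, and the lowest injured library was 2.28 times the highest uninjured one. Summed, 627.5 CPM (547 to 716) compared with 1491 CPM (1397 to 1589), and the ratio was 2.38 (2.05 to 2.77). The interval of this ratio lay wholly above 2.

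*Stmn3* (ENSMUSG00000027581), known as SCLIP, is the neuronal stathmin closest in kind to SCG10. The uninjured libraries gave 180, 164 and 150 counts (1549, 1406 and 1291 CPM) and the injured ones 468, 439 and 467 (2209, 2077 and 2209 CPM). The groups did not overlap, but its ratio was the lowest of the stathmins. Summed, 1415 CPM (1293 to 1546) compared with 2165 CPM (2052 to 2283), and the ratio of 1.53 (1.38 to 1.70) did not reach 2 at either end of its interval.

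*Stmn4* (ENSMUSG00000022044), known as RB3, is a neuronal stathmin made in several splice forms, and the RefSeq gene table lists 6 transcripts for it. The uninjured libraries gave 1, 1 and 2 counts (8.60, 8.58 and 17.2 CPM) and the injured ones 28, 15 and 25 (132, 71.0 and 118 CPM). Every injured library was at least 4.12 times every uninjured one. The summed levels were 11.5 CPM (3.12 to 29.3) and 107 CPM (83.2 to 136). The ratio of 9.35 was the highest of the 8, but with 4 uninjured counts its interval ran from 3.49 to 35.3. That interval did not overlap those of the other stathmins, while it overlapped those of *Gap43* and *Marcks*.

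**Figure D2:**
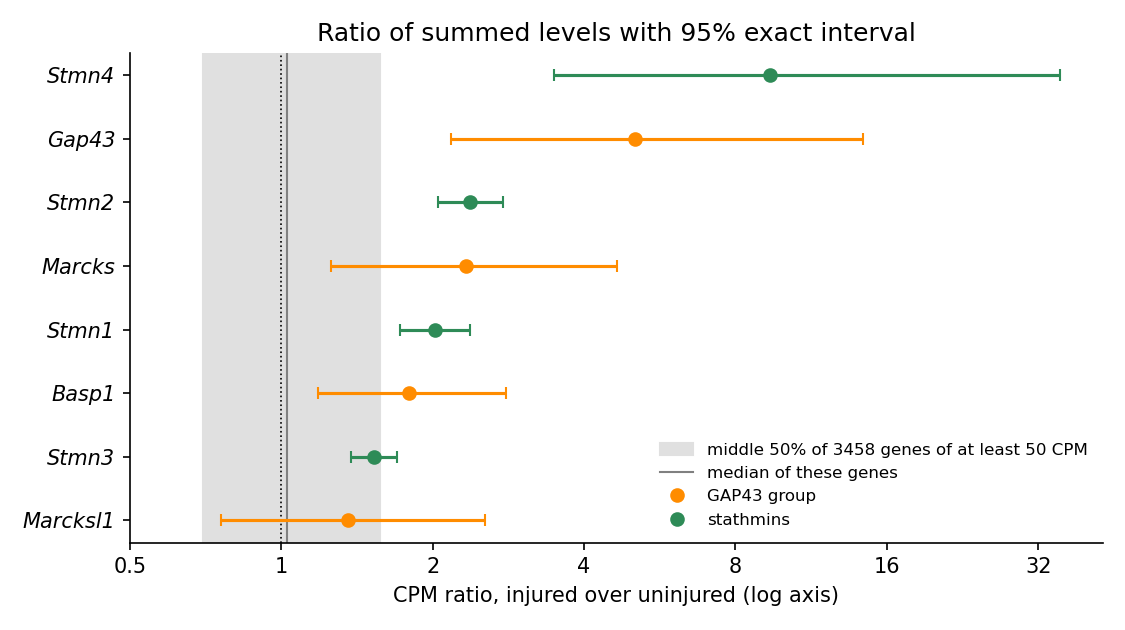
Ratio of injured to uninjured CPM of the summed groups (log axis) with its exact 95% interval for each RNA, beside the median and the middle 50% of the 3458 genes averaging 50 CPM or more. *Stmn4* (9.35) and *Gap43* (5.04) have the highest ratios and the widest intervals, and only the interval of *Marcksl1* includes 1.

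edgeR's quasi-likelihood test with Benjamini-Hochberg adjustment was fitted on all 3158 genes left by the filter on low counts, which 7 of the 8 RNAs passed. Of these 7, 6 were called higher in the injured reads, against 24.9% of the genes tested. The 6 were *Gap43*, *Marcks* and the 4 stathmins. None of the 7 tested RNAs was called lower in edgeR, against 22.1% of the genes tested, and 0 were lower at an unadjusted p under 0.05. The test compares the reads of 2 samples, not the conditions, and no p of a single gene is given for that reason. *Marcksl1* did not pass the filter. *Gap43*, *Marcks* and *Stmn4* passed it through their injured libraries alone, so their presence among the tested genes already required a higher injured level. These 3 could therefore not have been called lower. The members were also chosen with earlier results of these data known, so the shares of all genes lend these counts no support. *Basp1*, *Stmn1*, *Stmn2* and *Stmn3* were above the filter's level in all 6 libraries, and of these only *Basp1* was not called.

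The calls of *Marcks* and *Basp1* depended on single libraries. *Marcks*, with a fitted log2 fold change of 1.13, was no longer called without the third uninjured library (0.79) or without the third injured library (1.02), nor in DESeq2 (1.22) or limma-voom (1.13). *Basp1*, at 0.77, became a call without the second (0.90) or the third injured library (0.95), with library totals in place of TMM factors (0.84), with a filter at a mean of 50 CPM (0.80) and with the replicate number as a block (0.76). Its lowest value, 0.38, came without the first injured library. A coefficient of variation of 0.2 was also assumed in place of the spread measured between libraries. *Gap43*, *Stmn2* and *Stmn4* were then called higher, as were 305 of the 3158 genes tested. With 0.4 no member was called higher, against 42 of the 3158 genes. *Gap43* and *Stmn4* were tested only through their injured libraries, so they could not have been called lower.

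**Figure D3:**
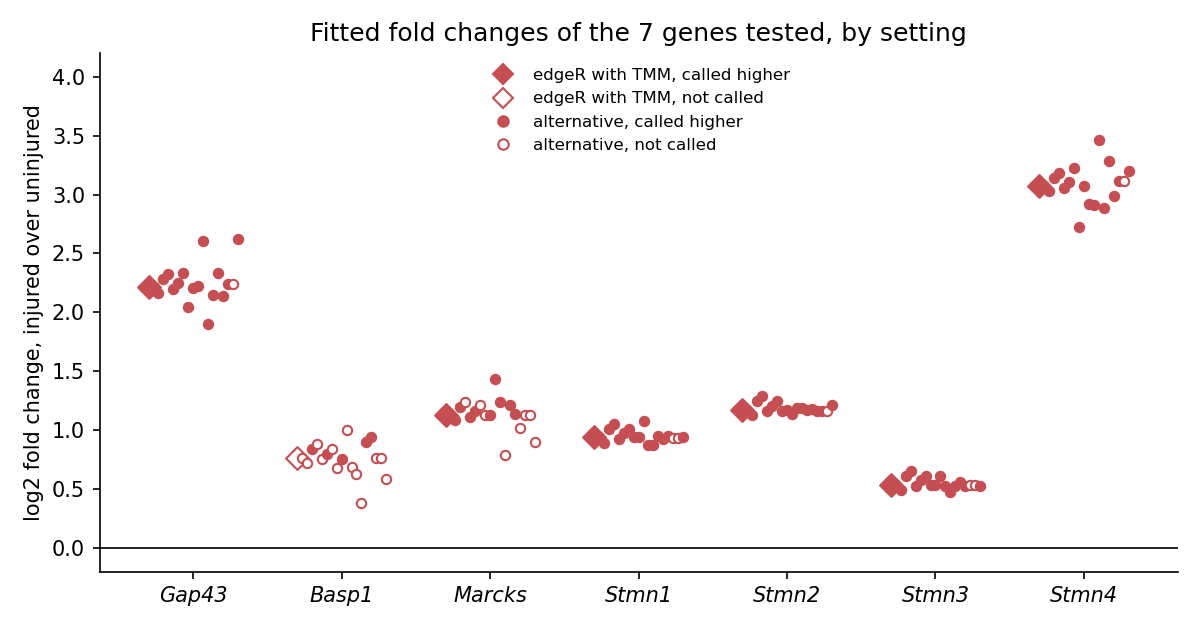
Fitted log2 fold change, injured over uninjured, of the 7 RNAs tested, under edgeR with TMM (diamonds) and 18 alternatives (circles), filled where the gene was called higher. All values are above 0, *Stmn1*, *Stmn2* and *Stmn3* vary little, and open circles are most frequent for *Basp1* and *Marcks*.

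The stathmins did not differ to the same degree between the summed groups, and the difference in their make-up does not depend on how libraries are scaled. Each group still counts as 1 sample, and the intervals cover counting error only. The 4 shares add up to the whole, so a lower share of 1 stathmin goes with higher shares of others. *Stmn3* gave 54.1% of the 914 stathmin counts without injury (95% Clopper-Pearson interval 50.8% to 57.3%) and 44.2% of the 3112 with injury (42.4% to 45.9%). *Stmn2* went the other way, from 24.0% (21.2% to 26.9%) to 30.4% (28.8% to 32.1%). *Stmn4* went from 0.438% (0.119% to 1.12%) to 2.19% (1.70% to 2.76%). For these 3 the intervals of the groups did not overlap. *Stmn1* kept overlapping intervals at 21.6% (18.9% to 24.4%) and 23.3% (21.8% to 24.8%). By library, the share of *Stmn3* was 52.3% to 55.0% without and 43.4% to 44.5% with injury, and that of *Stmn2* was 21.1% to 26.1% and 30.1% to 30.8%. With the 4 stathmins summed, 2619 CPM (2452 to 2794) uninjured and 4904 CPM (4733 to 5079) injured gave a ratio of 1.87 (1.74 to 2.02).

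The GAP43 group was sampled too thinly for its make-up to be resolved as well. *Gap43* gave 9.09% of the 66 counts of the group without injury (3.41% to 18.7%) and 22.0% of the 250 with injury (17.0% to 27.7%), with overlapping intervals. The shares of *Basp1* were 45.5% (33.1% to 58.2%) and 39.2% (33.1% to 45.6%), and those of *Marcks* were 19.7% (10.9% to 31.3%) and 22.0% (17.0% to 27.7%). *Marcksl1* had 25.8% (15.8% to 38.0%) and 16.8% (12.4% to 22.0%). By library, the ranges were 5.56% to 13.6% and 19.2% to 26.0% for *Gap43*, which did not overlap, while those of *Basp1*, *Marcks* and *Marcksl1* met or overlapped. Summed over the group, 189 CPM (146 to 241) without injury and 394 CPM (347 to 446) with injury gave a ratio of 2.08 (1.58 to 2.78), whose interval overlapped that of the stathmins.

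**Figure D4:**
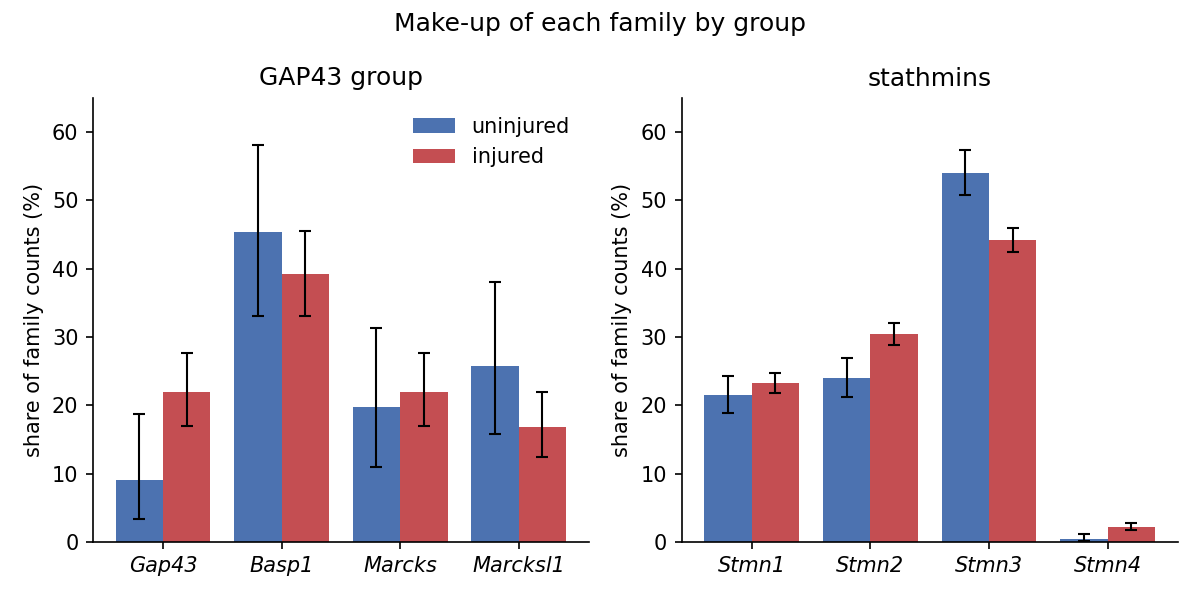
Share of each family's counts (%) that came from each member in the summed uninjured and injured groups, with 95% Clopper-Pearson intervals. *Stmn3* is lower and *Stmn2* and *Stmn4* are higher in the injured group with intervals apart, and all 4 pairs of the GAP43 group have overlapping intervals.

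The genes outside the 8 with the most similar values were sought for the members at the ends of the range, by the Euclidean distance of log2(CPM + 1) over the 6 libraries. Nearest to *Stmn4* was ENSMUSG00000097589, at a distance of 1.10, with 1, 2 and 2 uninjured and 30, 22 and 29 injured counts and a ratio of 8.91 (3.67 to 28.2). Nearest to *Marcksl1* was ENSMUSG00000066568, at 0.484, with 5, 6 and 6 uninjured and 17, 12 and 12 injured counts and a ratio of 1.33 (0.737 to 2.49). The next nearest genes lay at 1.21 and 0.548.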

How the data were processed

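The authors deposited unnormalized estimated counts for each Ensembl identifier, made with minimap2 and Salmon on GRCm39 (mm39), per the submitters' processing notes. The sources used here do not give versions, parameters, annotation or filters. All values were whole numbers, so rounding changed 0 of them. Per the labels' protocols, a nanopore cDNA-PCR kit amplified the cDNA, so reads are not independent molecules. Groups and replicate numbers came from sample titles.

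The members and lists were chosen with earlier results of these data known. All 8 members are named whatever their values, with the gene nearest to the member of highest and of lowest ratio. Levels are CPM of column totals. In ratios of other genes, a group with 0 counts was set to 3 counts over the group. Intervals of ratios are Clopper-Pearson intervals of the injured part of a gene's counts, turned into ratios. The fit was edgeR 4.0.16 (R 4.3.3), TMM, filterByExpr and a Benjamini-Hochberg threshold of 0.05 over all genes tested, checked on simulated data. Ratios by full totals lay 0.07 (log2) above that scale. DESeq2 1.42.0 and limma-voom (limma 3.58.1), other factors and filters, the replicate block, assumed spreads, thinning and leaving out libraries were alternatives. The lists of related growth cone genes and of cell type markers, and protein identities, were not analysed here.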

Additional observations from a re-analysis of the deposited data

How the results depend on the processing

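The 7 tested genes kept their direction under all 18 alternatives (126 values). *Gap43*, *Marcks* and *Stmn4* passed the main filter through their injured libraries alone, which already required that direction. The alternatives also refit the same reads, so the kept directions are not separate support. Of the 126 values, 106 also kept their side of the threshold, 15 lost a call and 5, all of *Basp1*, gained one. Of the lost calls, 8 were of *Marcks*, among them those with thinned injured libraries (log2 fold change 0.90) and with no filter on low counts (1.24). The remaining 7 came with assumed spreads. With an assumed coefficient of variation of 0.2, 3 members were called higher, and 305 genes higher and 176 lower over all genes tested. With 0.4 these were 0, 42 and 5, against 6, 786 and 699 with the measured spread. Leaving out 1 library at a time, with the tested genes kept, gave 5 to 7 members called higher, 657 to 737 genes higher and 604 to 653 lower. No CPM ratio or share left its own interval when a library was left out. Those intervals are wide where counts are few, and the libraries of a group nearly agree within counting noise. This outcome therefore does not test the spread between animals. The replicate block gave 7 members called higher, 750 genes higher and 677 lower. Whether numbers pair libraries was not decided (correlations of deviations 0.0389, -0.0063 and -0.0506 over 2976 genes; 1 of 3 libraries was nearest to that of its number). *Marcksl1* was tested only with other filters, in DESeq2 (log2 fold change 0.44), without a filter (0.48) and from a mean of 50 CPM (0.40), and was called in none of these. The count of pyrimidine runs at starts stayed at 0 with at least 3, at least 6 or any run of 5 in the first 10 bases. Depth limits the GAP43 group and *Stmn4* most: 3 counts are 8.60 CPM in the uninjured group.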

Other observations

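The 30 bases before the annotated *Stmn3* start, printed above in lower case, hold 24 pyrimidines, and 2.57% of the 32851 starts in the RefSeq table have as many or more. The corresponding stretch of *Basp1* holds 5 and that of *Marcksl1* 16, numbers reached or passed by 99.3% and 46.2% of starts. This window was chosen after the sequences were seen, and which start is used in DRG was not measured here.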
